A study of Mus musculus with 12 samples.

Results

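Molecular chaperones bind unfolded or partly folded proteins, and chaperonins enclose them in a chamber in which they fold. The chaperones and chaperonins described here are 44 genes chosen by their symbols (Hsp70, Hsp110, Hsp90, Hsp60, small heat shock and J-domain proteins, subunits of the TRiC chaperonin, their co-factors and the heat shock factors Hsf1 and Hsf2), all of which were among the 20778 gene symbols of the count table. Their RNA levels were measured by mRNA sequencing in CD8 T cells sorted on magnetic beads (MojoSort) out of C57BL/6 mouse spleen. Cells of all 4 groups were cultured for 6 hours, and the groups were untreated cells (Naïve), cells given an antibody to CD3 of the T cell receptor (αCD3, 1 µg/ml), cells given the cytokine interferon gamma (IFNγ, 70 ng/ml) and cells given lipopolysaccharide of the bacterial cell wall (LPS, 1 µg/ml), with 3 libraries in each. One label field has µg/ml and another mg/ml for αCD3 and LPS, and the mice are 6 weeks old in the labels but older in the study's methods, so the unit and the age are uncertain. Of the 44 genes, 43 passed the filter on low counts and were tested among 12122 genes, and Hspb1, a small heat shock protein, did not pass.

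Hsp70 proteins bind short hydrophobic stretches of their clients in a cycle of ATP binding and hydrolysis, in which J-domain proteins (the Dnaj genes) deliver the client and start hydrolysis, and nucleotide exchange factors such as Hsp110, BAG proteins and Hspbp1 reset the cycle. Hsp90 acts later, on kinases, receptors and other partly folded clients, and TRiC, a double ring in the cytosol, folds actin, tubulin and a further set of proteins, while separate Hsp70, Hsp90 and Hsp60 proteins serve the endoplasmic reticulum and the mitochondria. Under heat or other proteotoxic stress the heat shock factor Hsf1 drives part of these genes, with Hspa1a and Hspa1b the classical inducible ones, and a T cell that leaves quiescence raises its protein synthesis and thereby the load on this machinery.

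Total counts were 10.2 M to 27.6 M per library, with the largest total in αCD3 replicate 1. The labels do not say whether the 3 libraries of a group came from separate mice, so the p-values measure the spread between these libraries, which may be technical. Libraries numbered 1 stood apart in all 4 groups, being the lowest of their group in every group for 28 of the 43 tested members (65.1%, against 15.5% of all tested genes) and the highest for 3 (6.98%, against 15.8%). Markers of B cells were expressed beside those of CD8 T cells, with a summed level over all 8 B cell markers of 3017 to 3295 CPM (counts relative to the TMM-scaled library size) in Naïve, 2206 to 2429 in αCD3, 2704 to 2773 in IFNγ and 1840 to 2390 in LPS. The 7 CD8 T cell markers in the table summed to 1313 to 1435 CPM in Naïve, 1794 to 1997 in αCD3, 1438 to 1480 in IFNγ and 1112 to 1266 in LPS. Sums over 8 myeloid markers reached 438 to 848 CPM in Naïve, 308 to 461 in αCD3, 368 to 666 in IFNγ and 298 to 531 in LPS. None of these markers was at 0 in all libraries. In LPS, 5 of the 7 CD8 T cell markers were lower than in Naïve and none higher, and in αCD3 4 were higher and none lower. Of the 8 B cell markers, 4 were lower in αCD3, 2 were lower and 1 higher in LPS, and 1 was lower in IFNγ. Of the 8 myeloid markers, 4 were lower in αCD3, 4 were lower and 1 higher in LPS, and none was called in IFNγ. The 4 CD4 T cell markers summed to 89.5 to 98.9 CPM in Naïve, 85.6 to 109 in αCD3, 80.3 to 94.2 in IFNγ and 67.3 to 84.6 in LPS. Of these, 1 was higher and 1 lower in αCD3, and 2 were lower in LPS. The 4 NK cell markers summed to 68.4 to 82.8 CPM in Naïve, 141 to 177 in αCD3, 92.3 to 161 in IFNγ and 67.6 to 117 in LPS. Among them 1 was higher in αCD3, 1 was higher in IFNγ and 1 was lower in LPS. In every group the sum of the B cell markers lay above that of the CD8 T cell markers. The B cell sums lay below Naïve in all treatments without overlap. The CD8 T cell sums did not overlap Naïve either, lying above it in αCD3 and IFNγ and below it in LPS. The αCD3 and IFNγ sums of the NK cell markers also did not overlap Naïve, nor did the LPS sum of the CD4 T cell markers. Of 6 erythroid markers 5 were in the table, with sums of 336 to 1867 CPM in Naïve, 405 to 1576 in αCD3, 569 to 4114 in IFNγ and 478 to 2885 in LPS. In bulk RNA such as this, fewer cells of a type and less RNA per cell cannot be told apart. The part of these cell types and of library number in the results was not tested.

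Members differed widely in level. Per kilobase of the longest transcript, Hspa8, the constitutive cytosolic Hsp70, had the highest mean of all 12 libraries (1256 CPM per kb), followed by Hsp90ab1, the constitutive cytosolic Hsp90 (1186), Hspa5, the Hsp70 of the endoplasmic reticulum also known as BiP (329), and Hsp90aa1, the inducible cytosolic Hsp90 (300). With lengths from the union of exons the first pair changed places (922 for Hspa8 and 996 for Hsp90ab1). The lowest were Hspa4l (0.609 CPM per kb), Hspb1 (0.416) and Hsf1 (0.315). As a share of the TMM-scaled library size, not of the raw total, the members together reached 1.13% ± 0.0639 (SD, n = 3) in Naïve. The share was 2.03% ± 0.250 in αCD3, 1.27% ± 0.120 in IFNγ and 2.49% ± 0.227 in LPS. The αCD3 and LPS libraries each lay above all Naïve and IFNγ libraries in this share, and the ranges of Naïve (1.06% to 1.19%) and IFNγ (1.14% to 1.36%) overlapped, while each IFNγ library lay above the Naïve library of the same number.

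Fold changes are given on the log2 scale with their standard errors (± SE), values per library in the order of replicates 1 to 3, and genes are called where the adjusted p lies under 0.05. After αCD3, 30 of 43 tested members were higher than in Naïve and none was lower (1 lower, Dnajc7, when libraries were scaled by total count alone), where 22.9% of all tested genes were higher and 15.7% lower. After LPS, 34 of 43 were higher and none lower (30 higher and 1 lower, Hspa13, with total counts alone), against 26.9% and 22.3% of all tested genes. IFNγ gave 4 higher members and none lower, against 8.17% and 4.27% of all tested genes. Median log2 fold changes over the 43 members were 0.67 after αCD3, 0.87 after LPS and 0.12 after IFNγ, beside medians over all tested genes of -0.02, -0.01 and -0.02. These 3 comparisons share the Naïve libraries. Scaling by total counts alone moved the medians over all tested genes to -0.13, -0.22 and -0.16, and those over the members to 0.55, 0.66 and -0.02, in that order. Tested over all 4 groups at once, 33 of 43 members differed, against 59.9% of all tested genes. With the replicate number as a block, which pairs libraries of the same number, 32 members were called higher and 1 lower after αCD3, 36 higher after LPS and 14 higher after IFNγ. The share of all tested genes called in either direction rose with the block as well, from 38.6% to 52.4% after αCD3, from 49.3% to 59.5% after LPS and from 12.4% to 24.9% after IFNγ. Without the libraries numbered 1, 33 members were called after αCD3, 36 after LPS and 14 after IFNγ, beside 48.8%, 55.1% and 23.3% of all tested genes. Of the 30 calls after αCD3, 28 held without any single library and in each other fit, and of the 34 after LPS, 30 did.

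**Figure D1:**
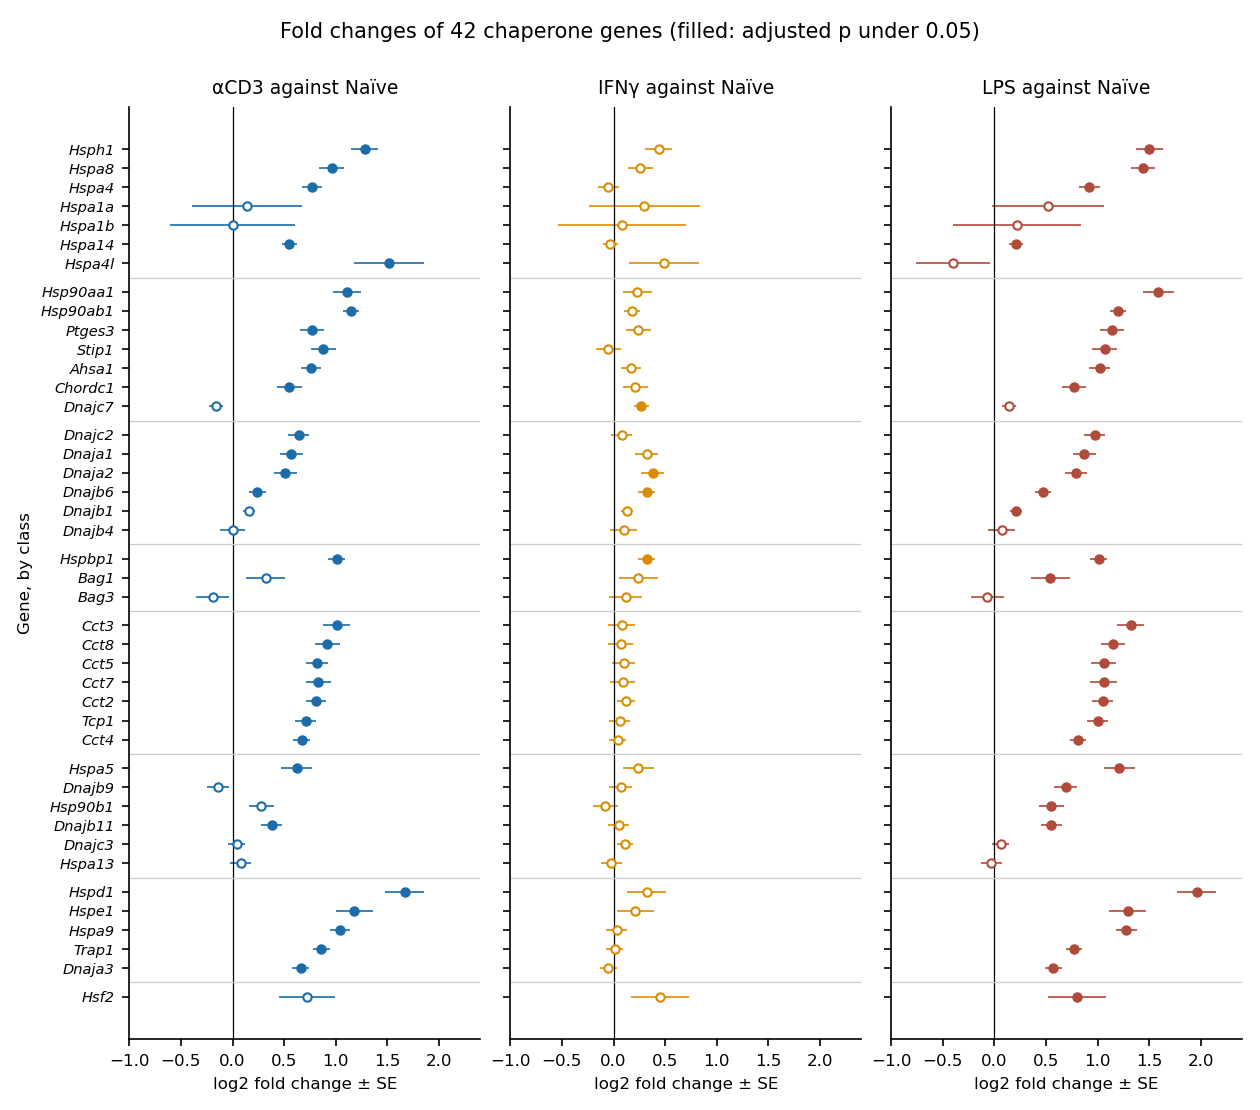
Log2 fold change against Naïve (horizontal axis, with SE) of 42 tested members, grouped from top to bottom into cytosolic Hsp70 and Hsp110, cytosolic Hsp90 and its co-chaperones, J-domain proteins, nucleotide exchange factors, TRiC subunits, endoplasmic reticulum, mitochondria and Hsf2, with filled points for an adjusted p under 0.05. Hsf1 is left out for its rounded counts of 0 in 6 libraries. TRiC and mitochondrial members lie between 0.57 and 1.96 in αCD3 and LPS, and between -0.05 and 0.32 in IFNγ.

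Of the 7 cytosolic Hsp70 and Hsp110 genes, 5 were higher after αCD3 and 4 after LPS (71.4% and 57.1%, beside 22.9% and 26.9% of all tested genes). Hspa8 was measured at 2212, 2283 and 2460 CPM in Naïve, 3769, 4963 and 4756 in αCD3, 2395, 2904 and 3015 in IFNγ and 5510, 6881 and 6436 in LPS. Both αCD3 and LPS lay above all Naïve libraries, with log2 fold changes of 0.96 ± 0.12 (adjusted p = 0.000180) and 1.44 ± 0.12 (adjusted p = 9.26e-06). Of the 31-base words of its transcripts 56.5% were unique and 38.6% were shared with the predicted gene Gm15459, so part of its reads could be assigned elsewhere. The levels of Hsph1 were 35.8, 39.9 and 36.1 CPM in Naïve, 89.3, 103 and 78.1 in αCD3, 40.0, 54.0 and 57.9 in IFNγ and 105, 104 and 108 in LPS. This Hsp110, an exchange factor of Hsp70, had groups that did not overlap between Naïve and any treatment, and rose by 1.28 ± 0.13 (adjusted p = 5.04e-05) after αCD3 and by 1.50 ± 0.13 (adjusted p = 1.16e-05) after LPS. For Hspa4 the libraries held 280, 300 and 304 CPM in Naïve, 437, 557 and 513 in αCD3, 264, 292 and 299 in IFNγ and 511, 603 and 558 in LPS. Hspa4, another cytosolic Hsp110, likewise rose (0.77 ± 0.10, adjusted p = 0.000159 after αCD3 and 0.92 ± 0.10, adjusted p = 2.88e-05 after LPS). Naïve libraries held 76.9, 79.2 and 84.4 CPM of Hspa14, αCD3 libraries 108, 123 and 121, IFNγ libraries 76.2, 80.8 and 78.7 and LPS libraries 84.8, 94.5 and 98.2. Hspa14 is the Hsp70 of the ribosome-associated complex, and its αCD3 libraries were the highest (0.55 ± 0.07, adjusted p = 0.000227). Its LPS call was small (0.21 ± 0.07, adjusted p = 0.0379), did not hold without Naïve replicate 1 or 2 or LPS replicate 2 or 3 (adjusted p up to 0.139), and turned to -0.0042 with total counts alone.

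Hspa4l counts scaled to 4.83, 3.44 and 3.21 CPM in Naïve, 15.9, 7.94 and 9.02 in αCD3, 7.29, 4.33 and 4.48 in IFNγ and 4.19, 2.19 and 2.41 in LPS. Hspa4l, an Hsp110 best known from testis, stood apart from the others of its class by rising after αCD3 (1.52 ± 0.34, adjusted p = 0.00502) with LPS libraries that overlapped Naïve. In the direct comparison αCD3 lay above LPS by 1.93 ± 0.35 (adjusted p = 0.00362). Within each group its replicate 1 was the highest of the 3, as it was for Hspa1a and Hspa1b.

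The stress-inducible Hsp70 genes Hspa1a (chr17:34969190-34972156, minus strand, GRCm38) and Hspa1b (chr17:34956436-34959238, minus strand) passed in none of the 6 comparisons. CPM of Hspa1a were 16.0, 4.14 and 5.21 in Naïve, 15.1, 5.54 and 7.17 in αCD3, 14.9, 8.23 and 8.38 in IFNγ and 15.8, 8.49 and 12.8 in LPS. In Naïve Hspa1b stood at 28.0, 6.73 and 8.90 CPM, in αCD3 at 25.7, 9.84 and 7.65, in IFNγ at 25.2, 11.1 and 10.1 and in LPS at 23.7, 16.1 and 11.9. In both genes replicate 1 was highest in every group, and the 4 groups overlapped. Adjusted p-values against Naïve were 0.859 and 0.999 after αCD3 and 0.445 and 0.790 after LPS, and with the replicate block Hspa1a was called after LPS (log2 fold change 0.71, adjusted p = 0.0217). Reads of the pair are hard to separate, since 63.8% of the 31-base words of Hspa1a occur in Hspa1b and 67.6% of those of Hspa1b in Hspa1a. Their promoter windows (RefSeq, GRCm38.p6, 250 bases before to 50 after the start) differed at 4 of 300 bases. The stretch printed here, from 150 to 51 bases before the start of Hspa1a (chr17:34972207-34972306, minus strand), is identical in Hspa1b and is shown since it holds the only heat shock pair of either window (capitals, GAANNTTC).
Hspa1a: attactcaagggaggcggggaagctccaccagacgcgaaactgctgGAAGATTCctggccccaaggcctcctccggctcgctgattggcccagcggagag

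**Figure D2:**
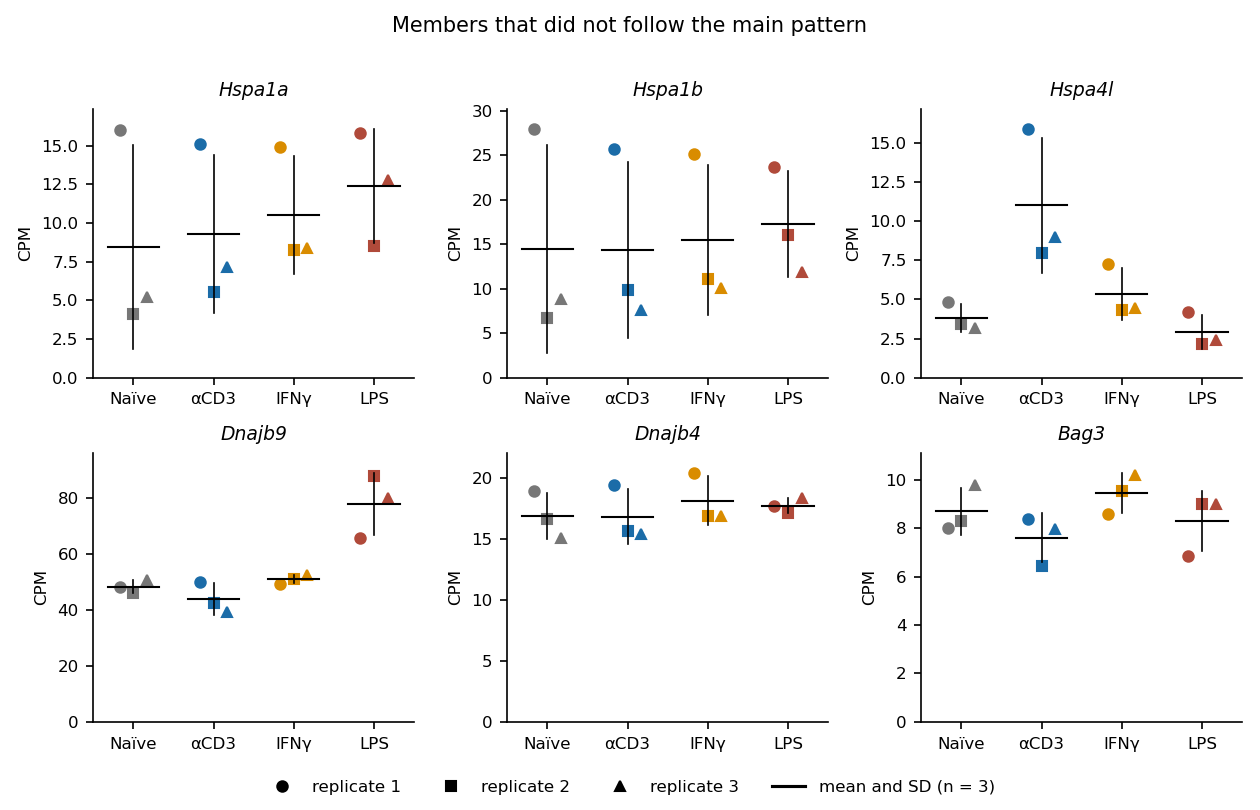
CPM (vertical axis, from 0) in each of the 12 libraries for 6 members, with circles, squares and triangles for replicates 1, 2 and 3, and a line and bar for mean and SD (n = 3). Replicate 1 of Hspa1a and Hspa1b is the highest in all 4 groups, Hspa4l is highest in αCD3, Dnajb9 is highest in LPS, and Dnajb4 overlaps between all groups, and Bag3 in each treatment overlaps Naïve.

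Of the 7 genes of cytosolic Hsp90 and its co-chaperones, 6 were higher after αCD3 and 6 after LPS (85.7% each, beside 22.9% and 26.9% of all tested genes). Expression of Hsp90ab1 was 1834, 1733 and 1824 CPM in Naïve, 3438, 4353 and 4148 in αCD3, 1917, 2034 and 2171 in IFNγ and 3913, 4262 and 4231 in LPS. Its fold change was 1.15 ± 0.08 (adjusted p = 8.12e-06) after αCD3 and 1.20 ± 0.08 (adjusted p = 3.08e-06) after LPS, and αCD3 differed from LPS by -0.06 ± 0.08 (adjusted p = 0.686). Hsp90aa1 was measured at 473, 563 and 574 CPM in Naïve, 995, 1286 and 1190 in αCD3, 530, 664 and 691 in IFNγ and 1343, 1828 and 1686 in LPS. The inducible form was higher after LPS than after αCD3 (1.11 ± 0.14, adjusted p = 0.000210 after αCD3, 1.59 ± 0.15, adjusted p = 1.37e-05 after LPS, and -0.48 ± 0.14, adjusted p = 0.0370 for αCD3 against LPS). The call between αCD3 and LPS was lost without αCD3 replicate 1 or 3 or LPS replicate 2 or 3 (adjusted p up to 0.141). As 46.7% of its 31-base words occur in the predicted gene Gm12346, its level is uncertain to that extent.

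Stip1, which hands clients from Hsp70 to Hsp90, and the Hsp90 activator Ahsa1 followed. The levels of Stip1 were 180, 197 and 214 CPM in Naïve, 309, 394 and 383 in αCD3, 171, 194 and 205 in IFNγ and 354, 446 and 445 in LPS. For Ahsa1 the libraries held 105, 109 and 110 CPM in Naïve, 160, 203 and 187 in αCD3, 116, 125 and 125 in IFNγ and 190, 229 and 239 in LPS. Neither gene had an αCD3 or LPS library within the Naïve range, and the fold changes were 1.07 ± 0.12 (adjusted p = 5.23e-05) for Stip1 and 1.02 ± 0.10 (adjusted p = 2.18e-05) for Ahsa1 after LPS. Naïve libraries held 140, 154 and 169 CPM of Ptges3, αCD3 libraries 230, 285 and 277, IFNγ libraries 164, 192 and 193 and LPS libraries 295, 374 and 354. Ptges3, the Hsp90 co-chaperone p23, reached 1.14 ± 0.12 (adjusted p = 2.86e-05) after LPS and 0.77 ± 0.12 (adjusted p = 0.000557) after αCD3. Chordc1 counts scaled to 67.6, 76.2 and 85.3 CPM in Naïve, 97.9, 123 and 114 in αCD3, 79.2, 99.1 and 87.3 in IFNγ and 117, 136 and 137 in LPS. Chordc1 is an Hsp90-binding CHORD protein whose smaller increase also passed (0.55 ± 0.12, adjusted p = 0.00452 after αCD3 and 0.77 ± 0.12, adjusted p = 0.000401 after LPS). CPM of Dnajc7 were 316, 321 and 338 in Naïve, 270, 302 and 298 in αCD3, 353, 420 and 404 in IFNγ and 346, 364 and 367 in LPS. Dnajc7, a J-domain protein that binds both Hsp70 and Hsp90, was the exception of the class: its αCD3 libraries lay below all Naïve libraries without passing (adjusted p = 0.108, and 0.0137 with the replicate block), its IFNγ libraries above them (0.27 ± 0.07, adjusted p = 0.0374), and IFNγ exceeded αCD3 by 0.43 ± 0.07 (adjusted p = 0.00104). After LPS Dnajc7 had an adjusted p of 0.134, and of 0.0231 with the replicate block (log2 fold change 0.14).

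**Figure D3:**
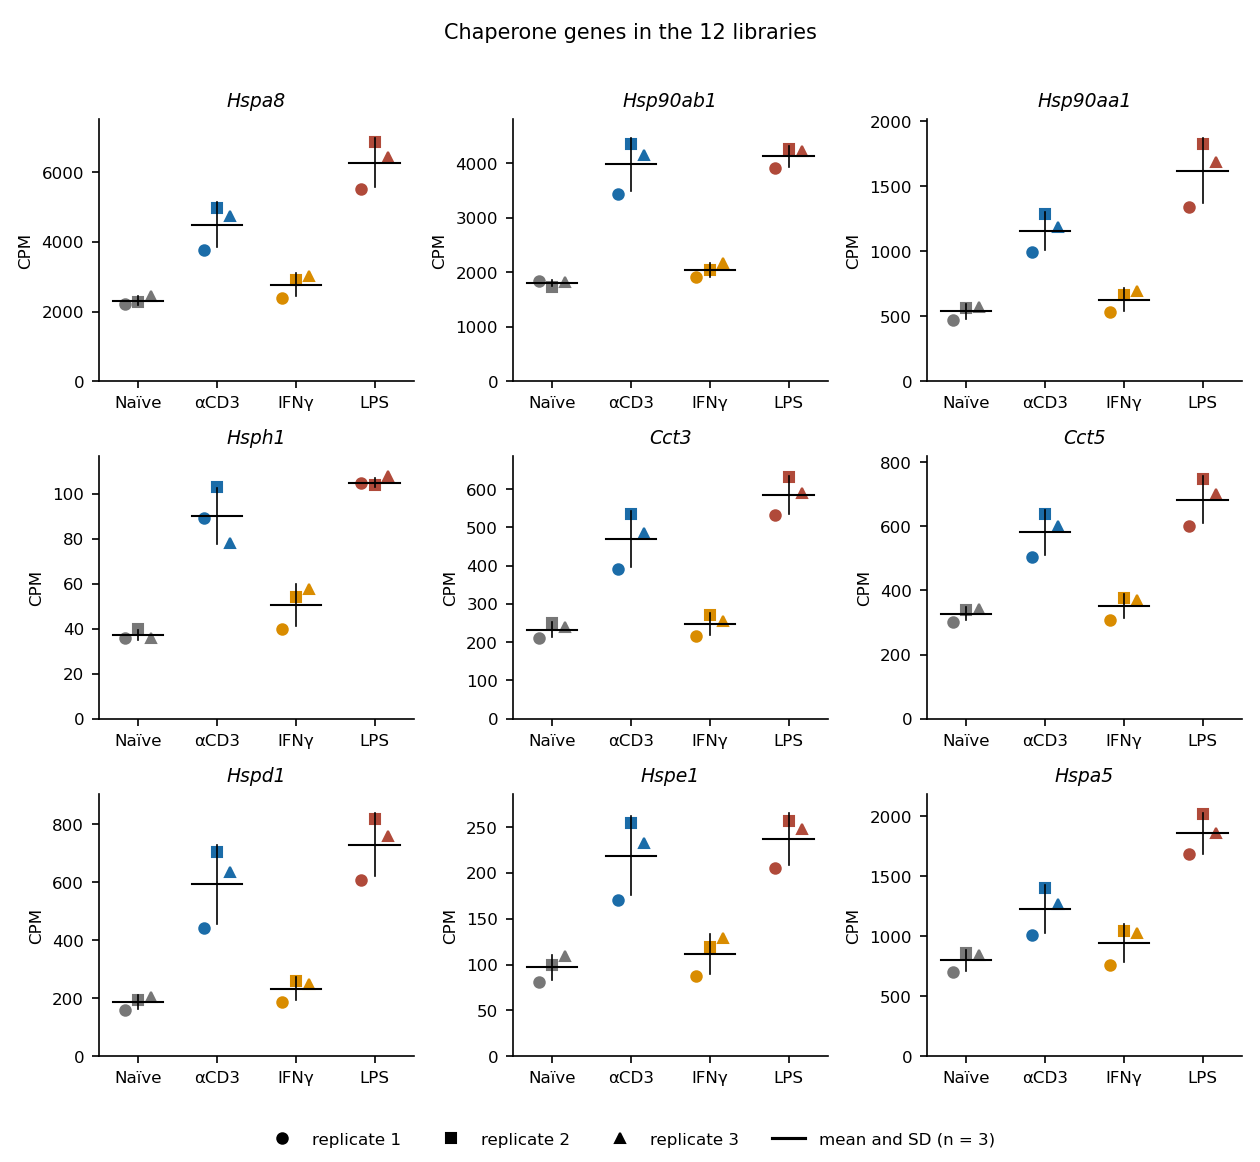
CPM (vertical axes, each from 0) of 9 members in the 12 libraries, with circles, squares and triangles for replicates 1, 2 and 3, and a line and bar for mean and SD (n = 3). In each panel the αCD3 and LPS libraries lie above all Naïve libraries, and in 7 of the 9 panels, all but Hsp90ab1 and Hsph1, IFNγ overlaps Naïve. The share of all tested genes that separate from Naïve in this way was not counted.

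Among the 6 cytosolic and nuclear J-domain genes, 4 were higher after αCD3 and 5 after LPS (66.7% and 83.3%, beside 22.9% and 26.9% of all tested genes). In Naïve Dnaja1 stood at 292, 301 and 344 CPM, in αCD3 at 419, 493 and 484, in IFNγ at 341, 404 and 422 and in LPS at 512, 604 and 600. Expression of Dnaja2 was 173, 198 and 199 CPM in Naïve, 250, 301 and 263 in αCD3, 216, 268 and 259 in IFNγ and 293, 355 and 339 in LPS. Dnaja1 and Dnaja2 are general partners of Hspa8, and rose by 0.57 ± 0.11 (adjusted p = 0.00177) and 0.51 ± 0.11 (adjusted p = 0.00409) after αCD3 and by 0.87 ± 0.11 (adjusted p = 8.02e-05) and 0.79 ± 0.11 (adjusted p = 0.000198) after LPS. Dnajc2 was measured at 114, 133 and 132 CPM in Naïve, 180, 212 and 199 in αCD3, 128, 134 and 140 in IFNγ and 215, 270 and 256 in LPS. Dnajc2, the J-domain partner of Hspa14 at the ribosome, was higher after LPS than after αCD3 (-0.33 ± 0.10, adjusted p = 0.0404) and above Naïve in both (0.64 ± 0.10, adjusted p = 0.000578 and 0.97 ± 0.10, adjusted p = 2.60e-05). Between αCD3 and LPS the call did not hold without αCD3 replicate 1 or 3 or LPS replicate 2 or 3 (adjusted p up to 0.155). Dnajb6, which keeps aggregation-prone proteins soluble, had the smallest αCD3 call, with 0.24 ± 0.08 (adjusted p = 0.0386) after αCD3 and 0.47 ± 0.08 (adjusted p = 0.000861) after LPS. The αCD3 call held only without αCD3 replicate 1 among the 6 fits that left out a library, with an adjusted p up to 0.139. The canonical Hsf1 target Dnajb1 stayed between 89.9 and 111 CPM in all libraries and Dnajb4 between 15.1 and 20.4. Dnajb1 was called after LPS (0.21 ± 0.06, adjusted p = 0.0189), which was lost without Naïve replicate 2 or LPS replicate 2 or 3 (adjusted p up to 0.0671) and turned to -0.0012 with total counts alone, and Dnajb4 was called nowhere. After αCD3 Dnajb1 had an adjusted p of 0.0761, and of 0.0300 with the replicate block (log2 fold change 0.16).

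Of the 3 nucleotide exchange genes outside Hsp110, Hspbp1 moved most. The levels of Hspbp1 were 32.4, 32.4 and 35.2 CPM in Naïve, 61.9, 69.1 and 70.8 in αCD3, 39.6, 40.7 and 44.3 in IFNγ and 64.7, 65.6 and 70.6 in LPS. This Hsp70 exchange factor rose by 1.01 ± 0.08 (adjusted p = 8.45e-06) after αCD3, by 1.01 ± 0.08 (adjusted p = 4.05e-06) after LPS and by 0.32 ± 0.08 (adjusted p = 0.0204) after IFNγ, with no Naïve library as high as any treated one. For Bag1 the libraries held 48.3, 65.1 and 79.8 CPM in Naïve, 83.0, 92.6 and 65.7 in αCD3, 58.3, 84.8 and 84.3 in IFNγ and 92.3, 92.0 and 95.6 in LPS. Bag1 was called after LPS (0.54 ± 0.19, adjusted p = 0.0405), which was lost without any of the 6 libraries but Naïve replicate 3 (adjusted p up to 0.134), and a Naïve library lay within the αCD3 range. Bag3, an Hsf1 target that links Hsp70 to autophagy, stayed between 6.45 and 10.2 CPM and passed in no comparison.

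All 7 TRiC subunits in the table were higher after both αCD3 and LPS, by 0.67 to 1.01 and by 0.81 to 1.32 on the log2 scale. Of all tested genes 22.9% and 26.9% were higher. No TRiC subunit was called after IFNγ (0.04 to 0.12), beside 12.4% of all tested genes. The subunit gene Cct6a was not found under that symbol and was not analysed here. Naïve libraries held 210, 249 and 240 CPM of Cct3, αCD3 libraries 391, 534 and 485, IFNγ libraries 216, 270 and 256 and LPS libraries 531, 632 and 590. Cct3 had the largest increases of the ring (1.01 ± 0.13, adjusted p = 0.000166 after αCD3 and 1.32 ± 0.13, adjusted p = 1.77e-05 after LPS). Cct4 counts scaled to 244, 256 and 263 CPM in Naïve, 364, 432 and 416 in αCD3, 249, 271 and 266 in IFNγ and 421, 472 and 447 in LPS. Cct4 had the smallest (0.67 ± 0.08, adjusted p = 8.82e-05 and 0.81 ± 0.08, adjusted p = 1.55e-05). CPM of Cct2 were 323, 343 and 349 in Naïve, 510, 643 and 625 in αCD3, 344, 388 and 370 in IFNγ and 641, 757 and 702 in LPS. In Naïve Cct5 stood at 303, 338 and 343 CPM, in αCD3 at 504, 637 and 602, in IFNγ at 307, 376 and 369 and in LPS at 601, 746 and 702. Cct2 and Cct5 were the most abundant subunits per kilobase. Expression of Cct8 was 211, 242 and 261 CPM in Naïve, 385, 499 and 468 in αCD3, 226, 261 and 262 in IFNγ and 462, 576 and 545 in LPS. Tcp1 was measured at 262, 297 and 306 CPM in Naïve, 408, 518 and 488 in αCD3, 279, 316 and 310 in IFNγ and 520, 615 and 596 in LPS. The levels of Cct7 were 91.4, 96.0 and 107 CPM in Naïve, 148, 195 and 180 in αCD3, 93.0, 117 and 104 in IFNγ and 179, 213 and 222 in LPS. In each of these 7 genes no αCD3 or LPS library was as low as the highest Naïve library, IFNγ overlapped Naïve, and replicate 1 was the lowest library of every group. How many of all tested genes separate from Naïve in this way was not counted. Between αCD3 and LPS 0 of 7 subunits were called (-0.31 to -0.14), beside 19.4% of all tested genes. An unadjusted p under 0.05 was found for 3 of 7, beside 4007 of all 12122 tested genes. With the replicate block all 7 were called lower in αCD3 than in LPS. Of all 12122 tested genes, 2201 were lower with the block and 34.7% were called in either direction.

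All 5 mitochondrial members were also higher in both, beside 22.9% of all tested genes after αCD3 and 26.9% after LPS. For Hspd1 the libraries held 161, 195 and 205 CPM in Naïve, 442, 703 and 636 in αCD3, 188, 261 and 250 in IFNγ and 609, 817 and 760 in LPS. Hspd1, the Hsp60 chaperonin of the matrix (chr1:55077835-55088243, minus strand), had the largest increase of all tested members after LPS (1.96 ± 0.19, adjusted p = 2.27e-05) and after αCD3 (1.67 ± 0.19, adjusted p = 0.000104). Naïve libraries held 81.6, 100 and 109 CPM of Hspe1, αCD3 libraries 171, 254 and 233, IFNγ libraries 87.6, 119 and 129 and LPS libraries 205, 257 and 248. Its lid, Hsp10 (Hspe1, chr1:55088132-55091307, plus strand), rose by 1.18 ± 0.18 (adjusted p = 0.000633) after αCD3 and 1.29 ± 0.18 (adjusted p = 0.000245) after LPS. The annotated genes overlap head to head on opposite strands. Between the RefSeq start of Hspe1 and that of Hspd1 with the window chr1:55087883-55088182 lie 215 bases. Another RefSeq start of Hspd1, with the window chr1:55088194-55088493, lies past the start of Hspe1, inside that gene. Whether the libraries keep the strand is not given in the sources used here. Only 49.9% of the 31-base words of Hspd1 and 75.2% of those of Hspe1 were unique, and 46.5% of those of Hspd1 occur in the pseudogene Hspd1-ps3. Hspa9 counts scaled to 262, 304 and 297 CPM in Naïve, 514, 653 and 608 in αCD3, 270, 310 and 302 in IFNγ and 638, 755 and 698 in LPS. Hspa9, the matrix Hsp70 (mortalin), rose by 1.04 ± 0.10 (adjusted p = 3.75e-05) and 1.28 ± 0.10 (adjusted p = 6.50e-06). CPM of Trap1 were 98.6, 99.2 and 103 in Naïve, 161, 202 and 186 in αCD3, 99.7, 102 and 102 in IFNγ and 161, 180 and 171 in LPS. In Naïve Dnaja3 stood at 44.5, 49.3 and 48.0 CPM, in αCD3 at 67.5, 79.7 and 77.7, in IFNγ at 43.2, 45.6 and 48.5 and in LPS at 71.0, 69.9 and 69.8. Trap1, the mitochondrial Hsp90, and Dnaja3, the J-domain partner of Hspa9, had smaller increases (0.86 ± 0.08, adjusted p = 2.37e-05 and 0.66 ± 0.08, adjusted p = 8.95e-05 after αCD3, and 0.77 ± 0.08, adjusted p = 2.79e-05 and 0.57 ± 0.08, adjusted p = 0.000148 after LPS).

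The RefSeq promoter windows of 36 members were searched for heat shock elements, and Hsp90ab1, Hsp90aa1, Hspa8, Hspa9, Hspa13, Dnajc2, Cct4 and Hsf1 had no window. The pair GAANNTTC was in the windows of 11 members (30.6%, against 9.04% of all 27025 gene symbols with a window), and the pair TTCNNGAA in those of 7 (19.4%, against 9.60%). Both read the same on either strand. The triple made of overlapping pairs, GAANNTTCNNGAA or TTCNNGAANNTTC, was in the windows of 5 members (13.9%, against 0.662%), namely Hspd1, Hspe1, Hsph1, Chordc1 and Dnajb6, and all 5 were called higher in both αCD3 and LPS, as were most members. Hspd1 and Hspe1 share a single site, which lies between those of their starts that are 215 bases apart. CCAAT on either strand was in 19 (52.8%, against 41.1%) and the E-box CACGTG in 4 (11.1%, against 8.09%). A match is a description of the letters and does not show binding. The triples of 4 members are printed since they are the matches that tell these members from most promoters, with the alternating units and the bases between them in capitals, on the strand of the gene named, in GRCm38.p6. The stretches lie at chr1:55088053-55088082 (plus strand), chr5:149636281-149636307 (minus), chr9:18292263-18292292 (plus) and chr5:29735844-29735873 (plus), in that order, and all 4 overlap an annotated exon.
Hspe1: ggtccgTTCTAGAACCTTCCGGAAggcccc
Hsph1: ctgcagaTTCTGGAAAGTTCtcctcag
Chordc1: GAACGTTCGGGAAAATTCCTGAAgcagtac
Dnajb6: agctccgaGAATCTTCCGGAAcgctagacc

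Of the 6 members of the endoplasmic reticulum, 2 were higher after αCD3 (3 with the replicate block) and 4 after LPS. These are 33.3% and 66.7%, where 22.9% and 26.9% of all tested genes were higher. Expression of Hspa5 was 701, 860 and 842 CPM in Naïve, 1012, 1400 and 1270 in αCD3, 764, 1042 and 1028 in IFNγ and 1685, 2020 and 1862 in LPS. BiP was higher in LPS than in αCD3 and higher in αCD3 than in Naïve, with 0.62 ± 0.15 (adjusted p = 0.00766) after αCD3, 1.21 ± 0.15 (adjusted p = 8.55e-05) after LPS and -0.60 ± 0.15 (adjusted p = 0.0170) between them, a call lost without αCD3 replicate 1 or LPS replicate 2 or 3 (adjusted p up to 0.0683). Hsp90b1 was measured at 608, 769 and 755 CPM in Naïve, 761, 901 and 925 in αCD3, 596, 675 and 740 in IFNγ and 946, 1108 and 1073 in LPS. Hsp90b1 (Grp94), the Hsp90 of this compartment, rose after LPS (0.55 ± 0.12, adjusted p = 0.00270) and did not pass after αCD3 (adjusted p = 0.0804), where its range overlapped Naïve. With the replicate block it passed after αCD3 too (log2 fold change 0.28, adjusted p = 0.000451), and each αCD3 library lay above the Naïve library of the same number. The levels of Dnajb11 were 124, 152 and 150 CPM in Naïve, 163, 204 and 189 in αCD3, 137, 156 and 149 in IFNγ and 194, 222 and 208 in LPS. Dnajb11 (ERdj3), a partner of BiP, was called in both (0.38 ± 0.10, adjusted p = 0.0153 after αCD3 and 0.55 ± 0.10, adjusted p = 0.00147 after LPS), the αCD3 call being lost without Naïve replicate 1 or αCD3 replicate 2 (adjusted p up to 0.0683). For Dnajb9 the libraries held 48.0, 46.1 and 50.8 CPM in Naïve, 50.1, 42.3 and 39.1 in αCD3, 49.4, 51.0 and 52.3 in IFNγ and 65.8, 87.7 and 80.0 in LPS. Dnajb9 (ERdj4), which binds the stress sensor Ire1, was called against Naïve in LPS (0.69 ± 0.11, adjusted p = 0.000552), with αCD3 libraries that overlapped Naïve, and it had the most negative call for αCD3 against LPS (-0.83 ± 0.11, adjusted p = 0.000633). Dnajc3 (p58IPK), an inhibitor of the eIF2α kinases, stayed between 117 and 141 CPM and Hspa13 between 23.1 and 30.7 CPM, and neither passed in any comparison.

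The endoplasmic reticulum stress element, CCAAT and CCACG with 9 bases between them on either strand, was in the windows of 3 members (8.33%, against 0.137% of all gene symbols with a window): Hspa5, Hsp90b1, which has a pair of them, and Dnajc3. They are printed with the element in capitals because the 3 genes carry it and differ in their values, with Hspa5 rising by 1.21 after LPS, Hsp90b1 by 0.55, and Dnajc3 not called. The stretches are chr2:34772020-34772049 (plus strand), chr10:86705515-86705674 (minus) and chr14:118937802-118937871 (plus) in GRCm38.p6.
Hspa5: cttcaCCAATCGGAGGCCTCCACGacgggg
Hsp90b1: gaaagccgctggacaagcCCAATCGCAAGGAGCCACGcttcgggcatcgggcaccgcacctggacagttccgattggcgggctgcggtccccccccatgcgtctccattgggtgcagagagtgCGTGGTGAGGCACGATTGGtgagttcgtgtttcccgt
Dnajc3: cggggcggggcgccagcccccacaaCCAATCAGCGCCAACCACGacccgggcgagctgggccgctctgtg

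The estimated levels of the heat shock factors were low, and those of Hsf1 varied widely within groups. Naïve libraries held 6.87, 6.02 and 5.33 CPM of Hsf2, αCD3 libraries 10.9, 8.27 and 10.7, IFNγ libraries 9.15, 6.99 and 8.86 and LPS libraries 6.03, 15.1 and 10.5. Hsf2 was called after LPS (0.80 ± 0.28, adjusted p = 0.0332), although LPS replicate 1 lay within the Naïve range and the call was lost without Naïve replicate 2 or 3 or LPS replicate 2 or 3 (adjusted p up to 0.176), and did not pass after αCD3 (adjusted p = 0.0596). Hsf1 counts scaled to 0.00, 2.19 and 0.00 CPM in Naïve, 0.212, 1.65 and 0.00 in αCD3, 1.05, 0.00 and 0.00 in IFNγ and 1.74, 0.00 and 4.99 in LPS. Its rounded count was 0 in 6 of the 12 libraries, and Hsf1 was called nowhere. The deposited counts of Hsf1 were fractional in 9 libraries, so some of these zeros were values rounded down to 0. CPM of Hspb1 were 0.195, 0.235 and 0.182 in Naïve, 0.176, 0.496 and 0.564 in αCD3, 0.891, 0.619 and 0.00 in IFNγ and 0.716, 0.168 and 0.402 in LPS. Hspb1 had 0 to 11 counts per library, where 3 counts correspond to 0.106 to 0.307 CPM, and was not tested.

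Summed over a class, the increases differed in size. The 5 mitochondrial members summed to 719 ± 62.5 CPM (SD, n = 3) in Naïve, 1663 ± 276 in αCD3, 786 ± 84.5 in IFNγ and 1903 ± 201 in LPS, ratios to Naïve of 2.31, 1.09 and 2.65. Cytosolic Hsp70 and Hsp110 reached 1.90 times the Naïve mean in αCD3 and 2.56 in LPS, cytosolic Hsp90 and its co-chaperones 1.99 and 2.26, and TRiC 1.77 and 2.09. The endoplasmic reticulum members reached 1.34 and 1.80, the J-domain members 1.38 and 1.66, and the nucleotide exchange members 1.46 and 1.58. IFNγ stayed between 1.06 and 1.21 times Naïve in these 7 classes. Such sums are set by their most abundant genes, Hspa8 in the first class.

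**Figure D4:**
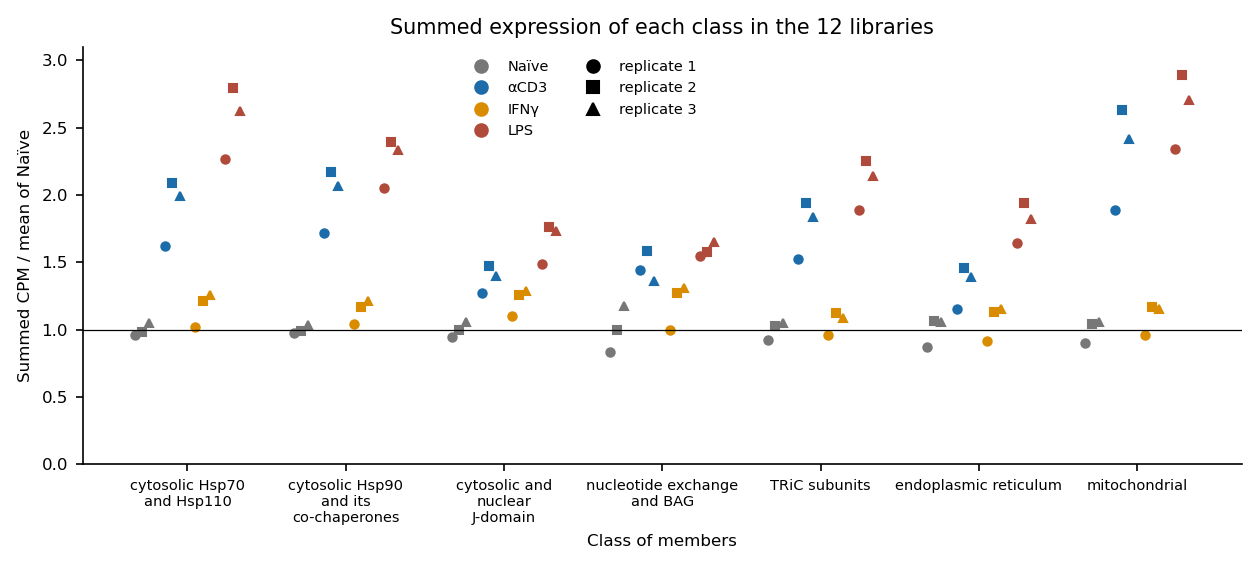
Summed CPM of 7 classes of members in each library, divided by the Naïve mean of the class (vertical axis, from 0), with colours for the 4 groups and symbols for replicates 1 to 3. Every LPS library lies above every Naïve library in all 7 classes, and the mitochondrial class reaches 2.65 times Naïve on average in LPS.

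Differences that passed between IFNγ and Naïve were small. The 4 called members were Dnaja2 (0.38 ± 0.11, adjusted p = 0.0447), Dnajb6 (0.32 ± 0.08, adjusted p = 0.0281), Hspbp1 (0.32 ± 0.08, adjusted p = 0.0204) and Dnajc7 (0.27 ± 0.07, adjusted p = 0.0374), and 7 of 43 had an unadjusted p under 0.05. In Naïve Dnajb6 stood at 160, 163 and 167 CPM, in αCD3 at 177, 204 and 197, in IFNγ at 190, 211 and 210 and in LPS at 202, 237 and 240. With the replicate block 14 members were called, all higher, among them Hspa8 (log2 fold change 0.25, adjusted p = 0.0109), Hsp90aa1 (0.22, adjusted p = 0.00632), Hspd1 (0.31, adjusted p = 0.00575), Hsph1 (0.43, adjusted p = 0.0297) and Hspa5 (0.23, adjusted p = 0.0106), beside 24.9% of all tested genes called in either direction. With libraries scaled by total count alone none of the 43 was called, while 18.8% of all tested genes were. Without Naïve replicate 1, Naïve replicate 2, IFNγ replicate 2 or IFNγ replicate 3 none was called, without Naïve replicate 3 there was 1, and without IFNγ replicate 1 there were 6.

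IFNγ was also compared with αCD3 and with LPS. Against αCD3, 27 of 43 members were lower in IFNγ and 1 was higher (Dnajc7), where 21.4% of all tested genes were lower and 15.8% higher, and the median over the members was -0.59. With the replicate block 30 were lower and 1 higher, Hspa5, Dnaja1 and Dnaja2 being added, beside 49.7% of all tested genes called in place of 37.2%. Against LPS, 30 were lower and none higher (29 and 1, Dnajc7, with total counts alone, and 31 and 2, Hspa4l and Dnajc7, with the replicate block, which added Dnajb6 to those lower), where 22.4% of all tested genes were lower and 18.0% higher, with a median of -0.76. TRiC and mitochondrial members were lower in IFNγ in both comparisons, 7 of 7 and 5 of 5. Hspd1 had the most negative calls in both, -1.35 ± 0.19 (adjusted p = 0.000314) against αCD3 and -1.65 ± 0.19 (adjusted p = 6.72e-05) against LPS, followed by Hspa4l against αCD3 (-1.04 ± 0.34, adjusted p = 0.0318) and Hsp90aa1 against LPS (-1.36 ± 0.15, adjusted p = 3.35e-05). Both comparisons share the IFNγ libraries. Against αCD3 the calls of Hspa4l (without αCD3 replicate 1 or IFNγ replicate 2 or 3), Hsp90b1 (without αCD3 replicate 2 or 3 or IFNγ replicate 1 or 2), and Dnajb11 and Chordc1 (without αCD3 replicate 2 or 3 or IFNγ replicate 1 or 3) were lost, and against LPS those of Hspa14 (without IFNγ replicate 1 or 3 or LPS replicate 2 or 3) and Dnaja2 (without IFNγ replicate 1 or LPS replicate 2).

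Between αCD3 and LPS, 7 members were lower and 2 higher in αCD3 (9.76% and 9.64% of all tested genes), and the median over the members was -0.23 against -0.01 over all genes. The 7 lower were Dnajb9, Hspa5, Hsp90aa1, Hspa8 (-0.48 ± 0.12, adjusted p = 0.0182), Ptges3 (-0.37 ± 0.12, adjusted p = 0.0494), Dnajc2 and Dnajc7 (-0.31 ± 0.07, adjusted p = 0.0162), and the 2 higher were Hspa4l and Hspa14 (0.35 ± 0.07, adjusted p = 0.00799). This count depended on the fit: it was 27 (2 higher and 25 lower) with the replicate block, beside 34.7% of all tested genes, and 25 (3 higher and 22 lower) without the libraries numbered 1, beside 29.4%, whereas 19.4% of all tested genes were called with all libraries and no block. It was 3 without αCD3 replicate 1, LPS replicate 2 or LPS replicate 3, and 14 without LPS replicate 1. Hspa4l, Hspa14 and Dnajb9 were called in every one of these fits, while Hspa8 (adjusted p up to 0.0771) and Dnajc7 (up to 0.0581) were lost without αCD3 replicate 1 or LPS replicate 2 or 3, and Ptges3 (up to 0.177) also without αCD3 replicate 2 or 3. The 27 called with the replicate block included all 9. With the block the adjusted p was 2.35e-05 for Hspa5, 4.22e-05 for Hsp90aa1, 0.000166 for Hspa8, 0.000306 for Ptges3, 0.000738 for Dnajc7 and 0.000819 for Dnajc2.

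**Figure D5:**
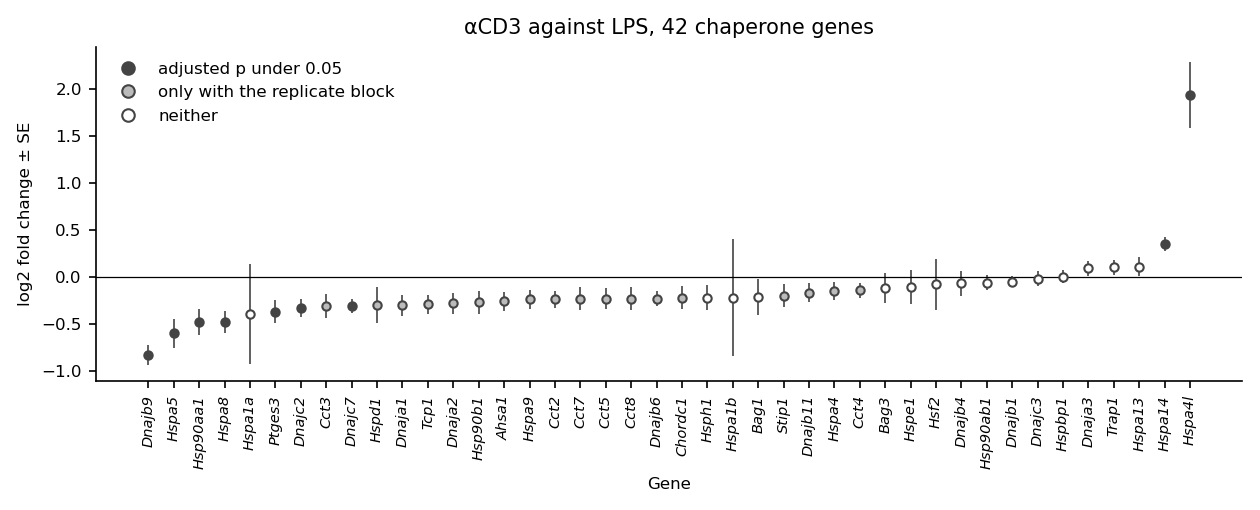
Log2 fold change of αCD3 against LPS (vertical axis, with SE) for 42 tested members in increasing order, Hsf1 left out for its rounded counts of 0 in 6 libraries. Filled points passed an adjusted p of 0.05, grey ones only with the replicate block, and values run from -0.83 (Dnajb9) to 1.93 (Hspa4l).

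Genes outside the 44 members were read from lists of related functions. Of all tested genes, 38.6% were called in either direction after αCD3, 49.3% after LPS and 12.4% after IFNγ. With the replicate block the shares were 52.4%, 59.5% and 24.9%. Of 45 tested other chaperones and co-chaperones, 23 were higher and 4 lower after αCD3, 21 and 7 after LPS, and 1 and 2 after IFNγ, so that 60.0%, 62.2% and 6.67% were called. With the replicate block these counts were 25 and 4, 22 and 10, and 2 and 3. Largest after αCD3 were Bag2, an inhibitor of the ubiquitin ligase Chip (log2 fold change 1.70 ± 0.22, adjusted p = 0.000207), Ruvbl1, an ATPase of the R2TP co-chaperone (1.27 ± 0.09, adjusted p = 7.35e-06), and Cacybp (1.22 ± 0.20, adjusted p = 0.000770). Of 13 genes of mitochondrial folding and proteolysis, 8 were higher and none lower after αCD3 and 7 and 1 after LPS, and none and 1 after IFNγ (8 and 0, 8 and 1, and 1 and 2 with the block), or 61.5%, 61.5% and 7.69% called. Clpp, the matrix protease, had log2 fold changes after αCD3 and LPS of 0.69 ± 0.08 (adjusted p = 6.88e-05) and 0.77 ± 0.08 (adjusted p = 2.17e-05).

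Of 30 genes of the unfolded protein response and of folding in the endoplasmic reticulum, 9 were higher and 3 lower after αCD3, 14 and 3 after LPS, and 1 and 3 after IFNγ. The shares called in either direction were 40.0%, 56.7% and 13.3%, beside 38.6%, 49.3% and 12.4% over all tested genes. By direction, 22.9% of all tested genes were higher and 15.7% lower after αCD3, 26.9% and 22.3% after LPS, and 8.17% and 4.27% after IFNγ. The block gave 11 higher and 8 lower after αCD3, 16 and 3 after LPS, and 3 and 7 after IFNγ. These are 63.3%, 63.3% and 33.3% of the list, where the block called 52.4%, 59.5% and 24.9% of all tested genes. After LPS the largest were Atf6, a stress sensor of this compartment (1.14 ± 0.11, adjusted p = 1.91e-05), Chac1 (1.21 ± 0.15, adjusted p = 9.44e-05) and, in the other direction, the sensor kinase Eif2ak3 or Perk (-1.31 ± 0.31, adjusted p = 0.00584). After αCD3 they were Canx (0.65 ± 0.08, adjusted p = 0.000124), Sil1 (0.62 ± 0.13, adjusted p = 0.00382) and Pdia3 (0.51 ± 0.15, adjusted p = 0.0189). Of 14 other genes of the heat shock response, none was higher and 4 were lower after αCD3, 3 were higher and 5 lower after LPS, and none and 1 after IFNγ. These are 28.6%, 57.1% and 7.14% of the list, beside 38.6%, 49.3% and 12.4% over all tested genes. In the blocked fit 3 were higher and 6 lower after αCD3, 5 and 5 after LPS, and 1 and 1 after IFNγ. Hmox1, an enzyme of haem breakdown, was lower after αCD3 (-0.84 ± 0.15, adjusted p = 0.00135) and after IFNγ (-1.12 ± 0.15, adjusted p = 0.00112), and Atf3 was higher after LPS (1.70 ± 0.43, adjusted p = 0.00776). Medians over these lists were 0.30 and 0.30 (other chaperones), 0.24 and 0.20 (mitochondrial), -0.08 and 0.26 (endoplasmic reticulum) and -0.25 and -0.12 (heat shock response) after αCD3 and LPS, beside -0.02 and -0.01 over all tested genes.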

How the data were processed

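RNA of 12 libraries was pseudo-aligned by the authors with Kallisto (its version and transcript annotation not given in the sources used here) to mm10, and they deposited expected counts, estimated counts per gene symbol and library without scaling. These were rounded here and entered into edgeR 4.0.16 (R 4.3.3, TMM, filterByExpr, robust glmQLFit with glmQLFTest) in 1 fit of all 12 libraries with the group as term, leaving 8 residual degrees of freedom. Two-sided p-values were corrected over 12122 genes (Benjamini-Hochberg). The steps were tested on simulated data. The members and the lists were chosen with earlier results of these data known.

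Values in every library are given for members called in at least 1 comparison with an absolute log2 fold change of at least 0.5 and for the 2 most expressed members of each class, and genes of the 4 other lists only where among the 3 largest calls. Libraries of the same replicate number deviated together in all 18 pairs (r 0.117 to 0.401 over genes, against -0.354 to 0.102 for 36 pairs of other numbers), so the numbers pair the libraries, and a fit with the number as a block is given beside the counts over all members, those of the 4 other lists and, for αCD3 and LPS against Naïve, beside the members whose call it changes. The design formula of the study's own test is not given in the sources used here. The number may mark a mouse or a day, which the labels do not say. Alternatives were total counts alone, DESeq2 1.42.0, limma-voom (limma 3.58.1), no count filter, the 2 groups compared alone and each library left out, beside, chosen after seeing the data, the libraries numbered 2 and 3 alone. Gene models, lengths and shared 31-base words are from GENCODE M21, and promoter windows from RefSeq (GRCm38.p6). The filter left out Hspb1. The lowest level read as detected, 3 counts, covers counting error only.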

Additional observations from a re-analysis of the deposited data

How the results depend on the processing

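Over 1755 refits of the 135 calls of members in the 6 comparisons, 1631 kept direction and call, 122 kept direction without passing and 2 reversed. The counts for αCD3 and LPS against Naïve, IFNγ against αCD3 and LPS, and any difference among groups stayed within 1.5 times under every alternative. Without single libraries they ran from 28 to 31, 30 to 33, 25 to 30, 28 to 33 and 33 to 35. For IFNγ against Naïve (4) the count was 0 with total counts alone, 1 without the count filter, 2 with both groups alone, 14 with the replicate block, 14 for the libraries numbered 2 and 3 alone, and 0 to 6 without single libraries. For αCD3 against LPS (9) it was 27 with the replicate block, 25 for the libraries numbered 2 and 3 alone, 5 with both groups alone, and 3 to 14 without single libraries. The block moved none of the other 5 counts over all members by more than 1.5 times. With total counts alone the fold changes after LPS of Hspa14, Dnajb1 and Dnajc7 were -0.0042, -0.0012 and -0.07. The cause was not tested. Lengths from the union of exons put Hsp90ab1 above Hspa8 per kilobase, and bases before the start alone held the heat shock triple in 3 members. At depths of 10.2 M to 27.6 M counts, Hspb1 had at most 11 counts in a library. Hsf1 had a rounded count of 0 in 6 of 12 libraries and of 62 in another.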
